A study of Mus musculus with 8 samples.

Results

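The GATA transcription factor genes Gata2, Gata3, Gata4, Gata5 and Gata6 were examined in the chromatin loops, topologically associated domains (TADs) and CTCF peaks of mouse cells. These 5 genes were taken by name from 20187 protein-coding genes of at least 1 kb. A loop was assigned to a gene when either of its anchors overlapped the gene body widened by 5 kb. TADs touching the same window and CTCF peaks overlapping it were assigned in the same way. Hi-C, which counts contacts between distant DNA segments, was performed on wild-type v6.5 mESC cells, a line of embryonic stem (ES) cells grown with LIF and without feeders, and on lens epithelium and lens fibers microdissected from newborn (P0.5) CD-1 mice. Each cell type had 2 Hi-C replicates, each lens replicate pooling tissue of 30 lenses, and the authors merged them before loops and TADs were listed. The groups are called ES cells, epithelium and fibers from here on. CTCF chromatin immunoprecipitation (ChIP-seq) gave 1 peak list for epithelium and 1 for fibers, from 200 lenses. ES cells were a single cultured line of another strain, so cell type, strain and culture cannot be told apart. All coordinates are in mm10, the GRCm38 assembly, and are counted from 1.

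GATA factors carry zinc fingers that bind DNA around the letters GATA and regulate the choice of cell lineage. Gata2 and Gata3 are best known in blood, and Gata4, Gata5 and Gata6 in heart and endoderm. In the lens, Gata3 is needed for fiber cells to leave the cell cycle as they differentiate. CTCF, together with the cohesin complex, holds many loops and TAD borders in place, while some loops of ES cells join genes that Polycomb proteins keep silent. No expression or histone mark was measured in the files used here.

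The lists held 8459 loops and 3604 TADs in ES cells, 8005 and 1796 in epithelium, and 7682 and 2641 in fibers. There were 16433 CTCF peaks in epithelium and 23868 in fibers. Because replicates had been merged, differences between cell types carry no replicate error and were not tested. Enrichment was taken as the observed contacts of a loop over those expected from the ring of map pixels around it, the donut expectation of the loop caller HiCCUPS. Its 95% intervals are exact Poisson intervals of the observed count and cover counting error only. A loop missing from a list says that HiCCUPS did not list it there, not that contacts were absent.

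Gata3 lies on the minus strand of chromosome 2, from 9857078 to 9887953, and Gata5 on the minus strand of the same chromosome, from 180325088 to 180335503. Gata2 occupies chromosome 6 from 88193891 to 88207032 on the plus strand. With 72.8 kb Gata4 is the longest of these genes and Gata5, with 10.4 kb, the shortest, against a median of 19.6 kb for all genes tested.

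Promoter sequences from RefSeq (GRCm38.p6) were matched for Gata3, Gata2 and Gata5. They are printed because the Gata3 and Gata2 windows lie inside loop anchors and the Gata5 window lies in none. Each runs 5′ to 3′ from 250 bases before to 50 bases after a transcript start, with CG dinucleotides in capitals.
Gata3, chr2:9878551-9878850, minus strand: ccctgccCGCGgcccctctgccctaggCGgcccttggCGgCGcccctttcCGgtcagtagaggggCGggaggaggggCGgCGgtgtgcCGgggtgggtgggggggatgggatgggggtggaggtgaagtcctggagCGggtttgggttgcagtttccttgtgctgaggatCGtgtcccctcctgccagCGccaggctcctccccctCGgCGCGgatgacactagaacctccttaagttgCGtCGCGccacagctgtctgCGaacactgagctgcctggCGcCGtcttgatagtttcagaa
Gata2, first start, chr6:88193641-88193940, plus strand: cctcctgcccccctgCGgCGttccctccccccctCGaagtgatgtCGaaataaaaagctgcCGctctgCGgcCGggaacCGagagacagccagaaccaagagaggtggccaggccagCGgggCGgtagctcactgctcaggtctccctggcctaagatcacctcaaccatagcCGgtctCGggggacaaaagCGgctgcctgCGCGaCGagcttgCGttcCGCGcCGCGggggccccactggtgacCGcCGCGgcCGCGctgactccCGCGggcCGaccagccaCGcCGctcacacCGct
Gata2, second start, chr6:88198414-88198713, plus strand: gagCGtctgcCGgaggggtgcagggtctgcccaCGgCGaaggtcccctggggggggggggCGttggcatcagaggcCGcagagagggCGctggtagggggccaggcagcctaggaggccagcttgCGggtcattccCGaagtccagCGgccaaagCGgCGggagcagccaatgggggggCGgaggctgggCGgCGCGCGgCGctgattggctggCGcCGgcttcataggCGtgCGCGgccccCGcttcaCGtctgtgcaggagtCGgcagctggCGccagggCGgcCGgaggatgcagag
Gata5, chr2:180334630-180334929, minus strand: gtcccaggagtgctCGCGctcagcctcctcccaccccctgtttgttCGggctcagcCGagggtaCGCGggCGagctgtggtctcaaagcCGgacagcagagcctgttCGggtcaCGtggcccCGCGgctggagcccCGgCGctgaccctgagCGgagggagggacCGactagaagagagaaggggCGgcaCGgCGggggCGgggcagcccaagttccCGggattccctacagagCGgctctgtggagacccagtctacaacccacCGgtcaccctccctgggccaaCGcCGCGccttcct

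The 4 promoters had many CG dinucleotides. Gata3 had 22, the first and second starts of Gata2 had 32 and 29, and Gata5 had 26, against a median of 7 in 32817 promoter windows of 300 bases. Fewer CG dinucleotides were found in 76.9% of all windows than in that of Gata3, and in 90.5% than in the first of Gata2. GATA with A or T before it and A or G after it, the letters that GATA factors recognise, was searched on both strands. It occurred 1 time in the Gata3 window, at base 287, and not in the other 3, and 29.8% of all windows held at least 1. CCCTC, the letters for which CTCF is named, occurred on either strand 5 times in the Gata3 window, 2 times in each Gata2 window and 4 times in that of Gata5, and 66% of all windows held it. No CTCF peak of either lens list overlapped any of the 4 windows. An anchor overlapped the Gata3 window in 5 loops of ES cells, 2 of epithelium and 1 of fibers. Each Gata2 window lay in an anchor of 1 ES cell and 1 epithelium loop.

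Loops at the Gata genes were most numerous in ES cells. They numbered 21 in ES cells, 7 in epithelium and 7 in fibers. Gata4 had 8, 3 and 2 loops in ES cells, epithelium and fibers, Gata3 had 6, 3 and 2, and Gata2 had 5, 1 and 1. Gata6 had 2 loops in ES cells, none in epithelium and 1 in fibers, and Gata5 had a single loop, in fibers. Thus 4 of 5 genes had a loop in ES cells, 3 in epithelium and 5 in fibers, where 39.3%, 38.2% and 36.4% of all genes had one. At least 6 loops in ES cells, the number at Gata3, were found at 0.832% of all genes, and at least 8, the number at Gata4, at 0.277%. Shares over all genes were not matched for gene length, and Gata4 and Gata3 were longer than 82.9% and 63.6% of all genes. The lens counts of Gata3 were less rare, since 5.52% of genes had at least 3 loops in epithelium and 14.2% at least 2 in fibers. Gata5 and Gata6 had a loop in fibers and none in epithelium, as did 6.68% of all genes.

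**Figure D1:**
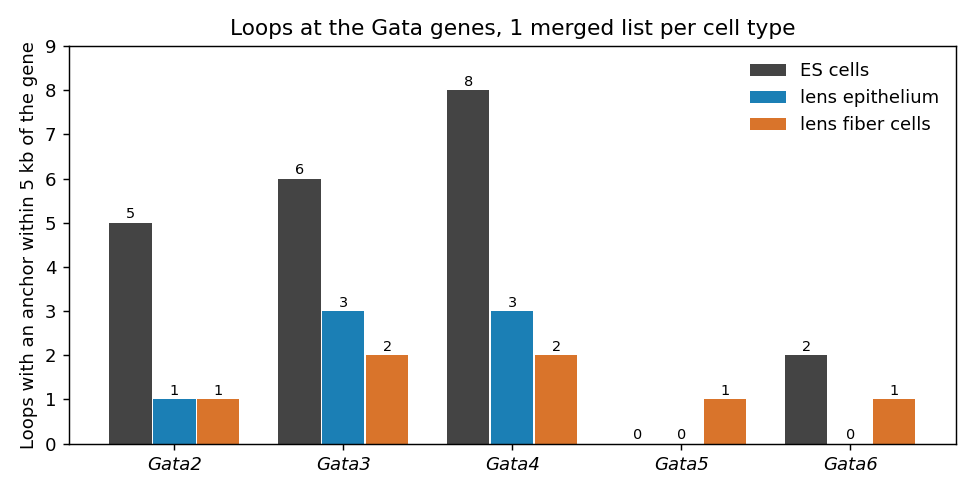
Number of loops (y axis) with an anchor within 5 kb of each Gata gene (x axis), in the merged loop list of each cell type (bar colour). ES cells have the highest bar at Gata2, Gata3, Gata4 and Gata6, with 8 loops at Gata4, and fibers have the single loop at Gata5.

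In ES cells, Gata3 was joined to sites up to 28450 kb away. Its shortest loop, of 495 kb, linked an anchor over the Gata3 start site, from 9875001 to 9880000, to Sfmbt2, a gene of the Polycomb group. It had 38 observed contacts where 3.06 were expected, an enrichment of 12.4 (95% interval 8.78 to 17.0). A loop of 1210 kb in the other direction reached a site at 8670001 with no protein-coding gene within 100 kb, at an enrichment of 10.3 (6.39 to 15.8). The other 4 loops were longer than 3 Mb and used the same 25 kb anchor over Gata3, from 9875001 to 9900000. Their far ends lay over Skida1 at 8150 kb, over the neighbours Commd3, Bmi1, Gm46725 and Spag6 at 8800 kb, over Lmx1b at 23750 kb and over Lhx2 at 28450 kb. The site at 8800 kb is called Bmi1 below, although an anchor of 25 kb does not tell its genes apart. Bmi1 encodes a Polycomb protein, and Lmx1b and Lhx2 encode LIM homeodomain transcription factors.

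The enrichments of these long loops were 9.75 (6.83 to 13.5) for Skida1, 13.5 (9.99 to 17.8) for Bmi1, 14.1 (8.08 to 23.0) for Lmx1b and 16.8 (10.6 to 25.2) for Lhx2. All 4 intervals overlapped. The observed contacts were few, between 16 for Lmx1b and 49 for Bmi1. At least 4 loops above 3 Mb were found at 0.272% of all genes in ES cells. None of the 4 had a counterpart in a lens list, where a counterpart has both anchor midpoints within 10 kb. The share of all ES cell loops without a counterpart was not computed, so this count is not shown to be particular to Gata3.

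In lens cells the loops of Gata3 stayed within 1200 kb. All 3 lists shared the loop to the site at 8670001, which spanned 1210 kb in ES cells and 1200 kb in each lens cell type. It had 36 observed contacts in epithelium and 38 in fibers, with enrichments of 3.85 (2.70 to 5.34) and 3.05 (2.16 to 4.19). Both lay below the value of 10.3 in ES cells, and the lens intervals did not overlap that of ES cells, although the ES cell loop was listed with anchors of 5 kb and the lens loops with anchors of 10 kb. At Gata3 the ES cell anchor, from 9880001 to 9885000, adjoined the lens anchors, from 9870001 to 9880000, without overlapping them, so the loop was shared by the 10 kb tolerance and not where both anchors had to overlap. Another loop was shared by both lens cell types and not by ES cells. It joined Gata3 to Taf3, which encodes a subunit of the general transcription factor TFIID, over 125 kb in epithelium and 130 kb in fibers. Its enrichment was 4.76 (2.91 to 7.35) from 20 contacts in epithelium and 2.60 (1.95 to 3.39) from 54 contacts in fibers, with overlapping intervals. Its far anchors, from 10005001 to 10010000 in epithelium and from 10010001 to 10020000 in fibers, adjoined without overlapping. The Taf3 loop was thus also shared by the 10 kb tolerance alone. Epithelium alone listed a loop of 400 kb from the Gata3 start site to an anchor 18.5 kb from Itih5, at an enrichment of 3.0 (2.27 to 3.89). Of the 2 fiber loops neither had all of its false discovery rates below 0.01, and of the 3 epithelium loops 2 did. The Taf3 loop was above that limit in both lens lists, with a highest rate of 1.3e-02 in each.

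**Figure D2:**
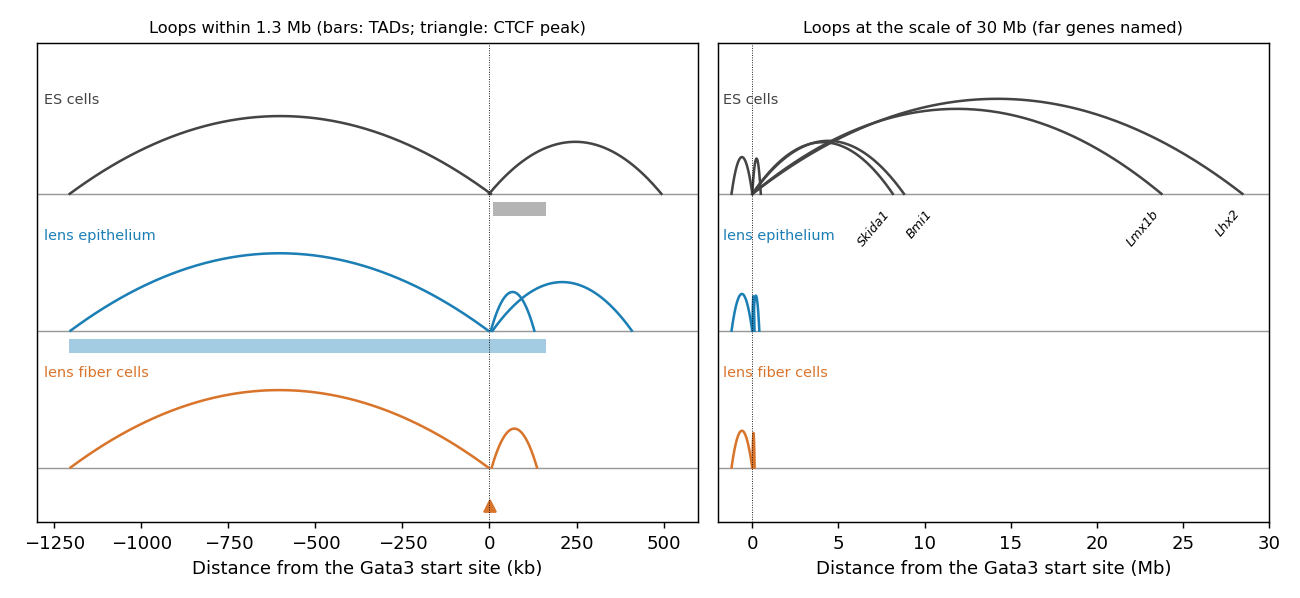
Loops of Gata3 as arcs from the gene to their far ends, in kb (left) and in Mb (right) from the Gata3 start site, with 1 row per cell type. The left panel adds TADs as bars and CTCF peaks as a triangle, and shows the loop of 1200 to 1210 kb in all rows (arc height has no unit). The right panel shows 4 arcs of 8150 to 28450 kb in ES cells and none in lens cells.

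Gata2 was joined in ES cells to 4 sites within 660 kb and to 1 at 4500 kb. The long loop ran to Vax2, a homeobox gene of the eye, with 22 observed contacts and an enrichment of 5.08 (3.18 to 7.69). The highest enrichment of the gene, 9.29 (5.68 to 14.3), belonged to a loop of 470 kb to Efcc1. Loops of 210, 320 and 660 kb to Eefsec, Sec61a1 and Podxl2 had enrichments of 1.90, 2.36 and 3.37. The first of these was near the lower limit of the list, since 1.08% of ES cell loops with anchors of 10 kb had a lower value. Each lens list held a single Gata2 loop, and both ended in Eefsec, which encodes the elongation factor for selenocysteine. They spanned 250 kb in epithelium and 220 kb in fibers and had enrichments of 2.27 (1.95 to 2.62) and 2.37 (1.78 to 3.08). Their anchor midpoints differed by more than 10 kb but less than 25 kb, so that they were shared under the wider tolerance.

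At Gata4, on chromosome 14 from 63198914 to 63271712, 2 short loops were common to all cell types and the long ones were listed in ES cells. A loop from the left end of the gene to a site at 63070001 spanned 120 kb in ES cells and epithelium and 130 kb in fibers. Its enrichment was 2.43 (1.93 to 3.01) in ES cells, 4.17 (3.29 to 5.21) in epithelium and 4.05 (2.77 to 5.72) in fibers. The intervals of ES cells and epithelium did not overlap, and those of both lens cell types did. The second shared loop led to Blk, which encodes a tyrosine kinase of the Src family, over 165, 170 and 160 kb in ES cells, epithelium and fibers. Here the enrichments of 4.39, 3.78 and 4.08 had overlapping intervals. For both loops the fiber anchors adjoined those of ES cells and of epithelium at 1 end without overlapping. Fibers therefore shared them by the 10 kb tolerance and not where both anchors had to overlap. Epithelium also had a loop of 325 kb to Mtmr9.

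The other 6 Gata4 loops of ES cells had no lens counterpart by the same rule, and the share of all ES cell loops without one was not computed. They joined Gata4 to the transcription factor genes Sox7 at 700 kb, Ebf2 at 3975 kb and Egr3 at 6825 kb, to the growth factor gene Fgf9 at 5175 kb, and to 2 sites 1340 and 1560 kb away that overlapped no gene and lay 62.5 kb from Kif13b and 72.2 kb from Kcnrg. Their enrichments ran from 2.79 (2.24 to 3.43) for Sox7 to 12.1 (7.68 to 18.2) for the site at 1340 kb. The near anchors of these 6 loops lay between 63225001 and 63275000, in the right part of the gene. Those of the 5 lens loops and of both shared ES cell loops lay between 63190001 and 63225000, so that the 2 sets did not overlap.

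Gata6, on chromosome 18 from 11052510 to 11085636, and Gata5 had few loops, and some lay just beyond the window. In ES cells, Gata6 was joined over 4010 kb to Kctd1, with 19 observed contacts where 0.85 were expected. This enrichment of 22.4 (13.5 to 34.9) was the highest of the 35 loops at the Gata genes. A second ES cell loop, of 200 kb, ended near Mib1, which encodes a ubiquitin ligase of the Notch pathway, at an enrichment of 2.05. In fibers a loop of 300 kb ran from the anchor of the Kctd1 loop over the left end of Gata6, from 11050001 to 11060000, to a site without a protein-coding gene within 100 kb, at an enrichment of 3.40 (2.42 to 4.65). All 3 lists also held a loop of 35 kb whose nearer anchor lay 7.51 kb from Gata6 and was thus outside the window. Its enrichment was 6.44 (5.28 to 7.78) in ES cells, 6.57 (4.84 to 8.71) in epithelium and 6.75 (5.29 to 8.49) in fibers, and the intervals overlapped.

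The Gata5 loop of fibers spanned 65 kb and ended in Rbbp8nl, the neighbouring gene, with 40 observed contacts and an enrichment of 5.15 (3.68 to 7.02). Its near anchor began 4.5 kb from the gene. ES cells and epithelium held counterparts of 70 and 60 kb that started 9.5 kb from the gene and so fell outside the window, at enrichments of 4.32 (3.44 to 5.35) and 3.26 (2.13 to 4.77). The intervals of all 3 overlapped, and the count of 1 loop in fibers against 0 in the others rested on a shift of 5 kb in the anchor. Among assigned loops, the anchors that did not reach the gene itself were those of this loop, of the Gata2 loops of 210 and 320 kb and of the Gata6 loop of 200 kb in ES cells, 2.51 to 4.5 kb away.

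The ES cell loops of the Gata genes were long. The median loop at the Gata genes spanned 1340 kb in ES cells, 250 kb in epithelium and 160 kb in fibers, where the medians of the whole lists were 220, 250 and 270 kb. Of the 21 ES cell loops, 9 were longer than 3 Mb, at 4 of the 5 genes, and 3.72% of the whole list was that long. A loop above 3 Mb was found at 2.00% of all genes in ES cells, at 0.357% in epithelium and at 0.302% in fibers, and at none of the Gata genes in either lens list. Of the 9 long loops, 8 had anchors of 25 kb. Their median enrichment was 10.2, close to the 11.2 of all 315 long loops of ES cells, while the 12 shorter ones had a median of 3.88 and the shorter loops of the whole list one of 3.0.

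Enrichment of the ES cell loops was higher at Gata3 than over the other Gata genes together, by an amount that depended on how loops were combined. The median loop had an enrichment of 13.0 at Gata3 and 5.08 over the 15 loops of Gata2, Gata4 and Gata6. Taken by gene, the medians were 3.37 at Gata2, 6.84 at Gata4 and 12.2 at Gata6, the last from 2 loops. The 183 contacts summed over its 6 loops were 12.3 times the expected number (10.6 to 14.2), whereas the 15 other loops summed to 2.77 times (2.58 to 2.97). Such sums weight loops by their contacts, and the Gata6 loop of 200 kb gave 220 of the 768 contacts of the others. Single loops overlapped, since Gata3 ran from 9.75 to 16.8 and the others from 1.90 to 22.4. Of the 6 Gata3 loops, 4 were above 3 Mb, against 5 of the 15 others. In epithelium the sums were 3.47 (2.86 to 4.17) for Gata3 and 2.76 (2.50 to 3.04) for the others, and in fibers 2.77 (2.23 to 3.40) and 3.39 (2.93 to 3.90). The lens intervals overlapped. HiCCUPS lists a loop for its excess of observed over expected contacts, so loops with few expected contacts are listed only at high ratios. The ratios and intervals therefore describe listed loops only. Expected counts fall with distance, and how far loop size accounts for the difference in ES cells was not tested.

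**Figure D3:**
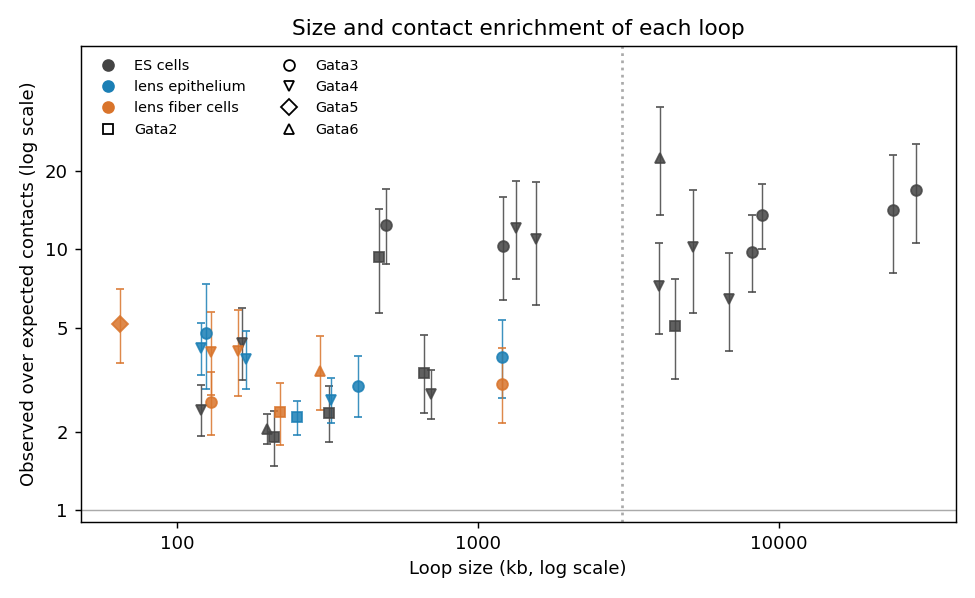
Loop size in kb (x axis, log scale) against observed over expected contacts (y axis, log scale) for the 35 loops at the Gata genes, with exact 95% Poisson intervals as bars, colour for cell type and symbol for gene. The dotted line marks 3 Mb. All 9 loops beyond it are from ES cells, at ratios of 5.08 to 22.4, and the lens loops sit between 2.27 and 5.15.

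The far ends of the long ES cell loops were chosen as ends of ES cell loops, so that counts there favour ES cells over lens cells by construction. Including the loop to the Gata gene, 12 ES cell loops had an anchor over the Lmx1b site, of which 9 were above 3 Mb. There were 9 at the Vax2 site, 9 at Skida1, 8 at Bmi1, 7 at Egr3, 5 at Ebf2, 4 at Lhx2, 2 at Fgf9 and 2 at Kctd1. The median of these 9 sites was 7 ES cell loops, and 7 of them (77.8%) had at least 4. Of the 630 anchors of all ES cell loops above 3 Mb, 59.7% had at least 4 and the median was 4, against 7.09% and a median of 1 over all ES cell anchors. At the 9 sites the lens lists had 0 to 3 loops each, none above 3 Mb. Vax2, Lhx2 and Fgf9 had no loop in either lens list, as did 43.2% of the anchors of all ES cell loops above 3 Mb, whereas Skida1 had 3 loops in epithelium and Egr3 had 2 in fibers. The site at 8670001, shared by all lists, was the opposite, with 1 loop in ES cells, 3 in epithelium and 2 in fibers.

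Some far ends of Gata3 were joined to each other. Of the 15 pairs among its 6 ES cell far ends, 6 were linked by an ES cell loop. Skida1 and Bmi1 were linked to each other over 650 kb. Lmx1b was linked with Skida1 over 15600 kb and with Bmi1 over 14950 kb, and Sfmbt2 with them over 7670 and 8320 kb. Bmi1 was also linked with Lhx2 over 19650 kb, so every linked pair included Skida1 or Bmi1. Of the 28 pairs at Gata4, 4 were linked, as were 1 of 10 at Gata2 and 0 of 1 at Gata6. That made 40.0% of pairs at Gata3, 14.3% at Gata4 and 10.0% at Gata2, where 17.1% of pairs were linked at the 55 genes with at least 4 ES cell loops above 3 Mb and 10.4% at all genes with at least 2 ES cell loops leaving them. Pairs at a gene share its loops, and the difference was not tested. A far end over a gene of 25 developmental families fixed by symbol, such as Lhx, Sox and Fgf, occurred in 3 of the 21 ES cell loops (Lhx2, Sox7 and Fgf9) and in 0 of 7 in each lens list. Over the whole lists, 3.30% of ES cell anchors and 29.5% of those of loops above 3 Mb lay on such a gene, and 1.36% and 1.33% of anchors did in epithelium and fibers. These shares counted both anchors of every loop, with Gata among the families, whereas loops at the Gata genes were counted at the far end only. Of the 9 long loops at the Gata genes 2 had such a far end.

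**Figure D4:**
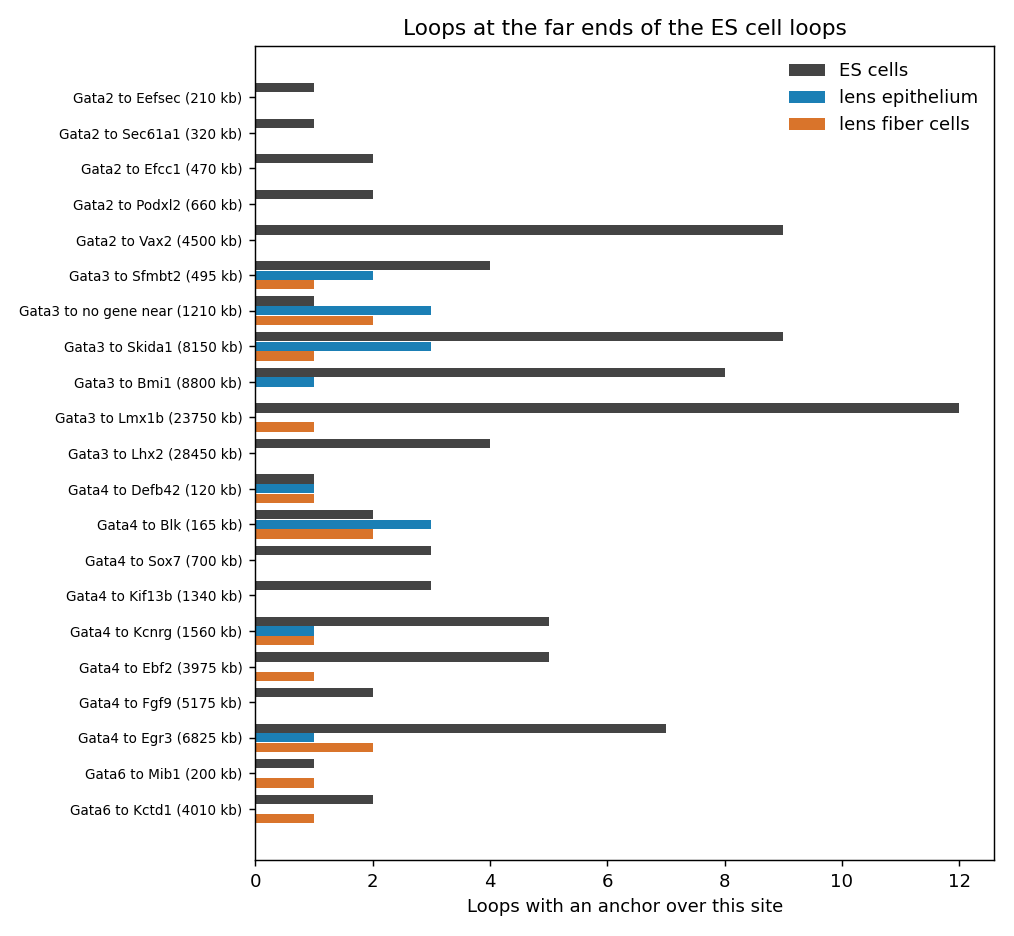
Number of loops (x axis) with an anchor over the far end of each of the 21 ES cell loops at the Gata genes (y axis, with loop size), by cell type. The Lmx1b site has the longest bar, with 12 loops in ES cells, 0 in epithelium and 1 in fibers.

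TADs touched Gata2 and Gata5 in all 3 lists, Gata3 in ES cells and epithelium, Gata4 in fibers and Gata6 in none. Each cell type had 3 TADs at these genes, where 45.7% of all genes were touched in ES cells, 24.1% in epithelium and 33.3% in fibers. Gata2 lay within a TAD of 320 kb in ES cells, 340 kb in epithelium and 365 kb in fibers, whose left borders differed by 5 kb and whose right borders moved from 88440000 to 88455000 and 88485000. That shift brought the whole of Eefsec inside the TAD in lens cells. Gata5 shared a TAD with Rbbp8nl in all 3 lists, of 80 kb in ES cells and epithelium and of 75 kb in fibers. Its borders were joined by a loop in ES cells and fibers.

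The TAD at Gata3 differed between the lists. In epithelium a TAD of 1370 kb, from 8670001 to 10040000, contained the gene, and its left border coincided with the far end of the loop shared by all cell types. ES cells had a TAD of 150 kb with the same right border that began at 9890001, 2.05 kb beyond the right end of Gata3. No TAD of fibers touched the window, and the nearest, of 95 kb, lay 17 kb from the gene. At Gata4 a fiber TAD of 130 kb held Ctsb, Fdft1 and Neil2 and ended 3.91 kb short of the gene, with a loop joining its borders, while the nearest TADs of ES cells and epithelium were 103 and 108 kb away. Gata6 had no TAD in any list within 243 kb.

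**Figure D5:**
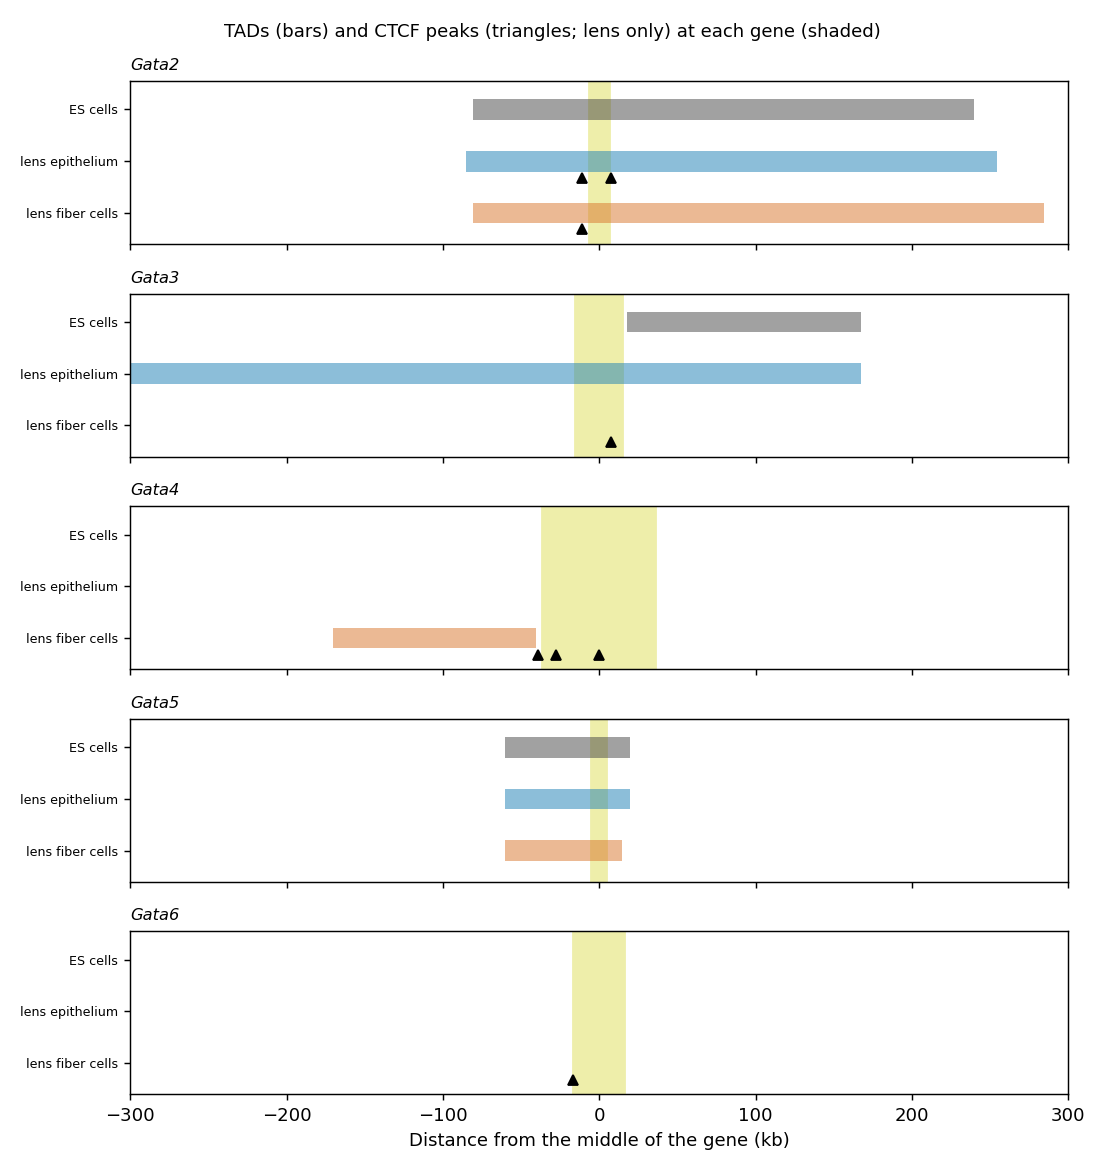
TADs (bars, coloured by cell type) that touch each Gata gene widened by 5 kb, and CTCF peaks in that window (triangles, lens lists only), against distance in kb from the middle of the gene (shaded). Gata2 and Gata5 lie in a TAD in all rows, Gata6 in none, and the epithelium TAD of Gata3 runs beyond the left edge.

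CTCF peaks at the Gata genes were found at Gata2 in epithelium, and at Gata2, Gata3, Gata4 and Gata6 in fibers. There were 2 peaks in epithelium, at 1 of 5 genes, and 6 in fibers, at 4 of 5, where 33.1% and 48.5% of all genes had a peak within 5 kb. Gata3, Gata4 and Gata6 had peaks in the fiber list and none in the epithelium list, as did 18.6% of all genes. Each cell type had 1 peak list, and a peak missing from it does not show that CTCF was absent. The fiber list was longer, and with its weakest peaks left out to match the epithelium list 4 of the 6 fiber peaks stayed.

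The Gata3 peak of fibers, from 9879605 to 9879917, had its summit 1140 bp upstream of the listed start site. Both the summit and that start site lay inside the gene body, which extends to 9887953. Its fold enrichment over background of 8.10 was above that of 73.3% of the fiber list. The nearest peak of epithelium lay 213 kb from the gene, and within 100 kb the epithelium list had none. At Gata6 the fiber peak overlapped the left end of the gene, with its summit 109 bp outside it and a fold enrichment of 6.64. Gata4 had 3 fiber peaks, of 6.92, 5.55 and 5.14, the first of them 2931 bp to the left of the gene and the others inside it, and the nearest epithelium peak was 86.3 kb away.

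Gata2 carried the single peak shared by both lens lists, 4223 bp upstream of its first start in fibers and 4280 bp in epithelium. It was the strongest peak at these genes, with a fold enrichment of 10.3 in fibers, above 90.3% of that list, and reached 5.57 in epithelium, above 43.2%. A second epithelium peak, 0.866 kb beyond the right end of Gata2, was weak, at a fold enrichment of 4.18 that exceeded 6.98% of the list. Gata5 had no peak in its window in either list, and the nearest lay 11.7 kb to its right in both. Fold enrichments were compared within a list only, since each depends on its own library.

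All 6 fiber peaks lay in a loop anchor of at least 1 cell type, as did 51.5% of the whole fiber list. That share was not matched for the number of loops at a gene. Of the 6, 3 lay in an anchor of the fiber list itself, a share not computed for the whole list. Among the 7 fiber loops, 3 had a fiber CTCF peak at both anchors (42.9%, Wilson interval 15.8 to 75.0), against 39.1% of the whole fiber list. They were the Gata3 loop of 1200 kb, the Gata4 loop of 130 kb and the Gata6 loop of 300 kb. A further 3 had a peak at 1 anchor, and the Gata2 loop had none. Of the 7 epithelium loops, 0 had an epithelium peak at both anchors (0 to 35.4%), against 15.7% of the whole epithelium list, and 5 had it at 1 anchor. Both Wilson intervals treat loops as independent, although several belong to the same gene, so they do not measure a spread between genes. With the fiber peaks set against the same 7 epithelium loops, 5 had a peak at both anchors. The fiber peak list is the longer one, and its share over all epithelium loops was not computed. At the shared Gata3 loop, both lists had a peak at the far end, and the fiber list alone had one at the Gata3 end.

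Genes for other GATA-type zinc finger proteins, GATA cofactors and inhibitors of the cell cycle were counted as a list. Of its 14 members, 6 genes had a loop in ES cells, 5 in epithelium and 6 in fibers, with 13, 9 and 8 loops in all. Over all genes those shares were 39.3%, 38.2% and 36.4%. Tal1, which encodes a partner of GATA factors in blood, had 6 loops in ES cells, 2 of them above 3 Mb, and none in either lens list. At least 6 ES cell loops were found at 0.832% of all genes. Tal1 was the single gene of the 14 with a loop above 3 Mb, where 2.00% of all genes had one in ES cells. Zfpm2, the gene of the GATA cofactor FOG2, was the reverse, with 0 loops in ES cells, 3 in epithelium and 2 in fibers. At least 3 epithelium loops were found at 5.52% of all genes, and at least 2 fiber loops at 14.2%. These shares were not matched for length, and Zfpm2 extends on chromosome 15 from 40655042 to 41104592. Of the genes for GATA-type zinc finger proteins, Gata1, Trps1, Zglp1, Gatad1 and Gatad2b had no loop and no CTCF peak in any list. Gatad2a had 1 loop in each list, 1 CTCF peak in epithelium and 2 in fibers. Of the cell cycle inhibitors, Cdkn1c had 2, 2 and 1 loops in ES cells, epithelium and fibers, and Cdkn1b had none. CTCF peaks were present at 5 of the 14 genes in epithelium and at 7 in fibers, against 33.1% and 48.5% of all genes.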

How the data were processed

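Per the methods and the file headers, the authors aligned Hi-C reads with bwa-mem, merged both replicates at MAPQ of at least 30, called loops with HiCCUPS (juicer_tools 2.13.06) and TADs with Arrowhead, and called CTCF peaks with MACS2 from uniquely mapped single-end reads without duplicates, on mm10. In the deposited loop lists the observed values are raw contact counts, the expected counts come from HiCCUPS, and each FDR is a q-value. In the deposited peak lists MACS2 gave a score, a fold enrichment (ratio) and the −log10 of p and q.

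Overlaps with gene bodies (gene table of GRCm38.p6), shared loops, enrichments and intervals came from Python 3.11.15 with scipy 1.17.1, pandas 2.3.3, numpy 2.4.6 and matplotlib 3.10.9. Interval counts were tested on simulated data (4 of 4 checks). Genes named are the 5 members, a fixed list of 14 partners, genes inside TADs, and far-end genes, which are those overlapping the far anchor, or the nearest within 100 kb. The members and gene lists were chosen with earlier results of these data known. Alternatives changed the window, FDR, anchor width, tolerance, TAD size and peak rule. The depth of each library was not used here, and promoter sequences of Gata4 and Gata6 were not analysed here. P-values between cell types were not computed.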

Additional observations from a re-analysis of the deposited data

How the results depend on the processing

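No paired analysis was possible because the replicates were merged before loops and TADs were listed, so that no value belongs to a single replicate and none could be left out. Of 65 alternatives to 21 results, 49 left the value within 1.5 times the reported one or within its interval, and 16 moved it. With loops of 5 or 10 kb anchors alone, 11 loops remained at the Gata genes in ES cells, 2 of them at Gata3, and 4 in epithelium. With all FDRs below 0.01, 3 loops were counted in fibers, and 0 at Gata3. Widening the genes by 25 kb gave 11 loops in epithelium, and 4 CTCF peaks in epithelium and 10 in fibers, while gene bodies without widening held 0 epithelium peaks. Asking both anchors to overlap left 0 ES cell loops shared with fibers, and 1 epithelium loop shared with fibers. TADs of at least 200 kb numbered 1 in ES cells and 1 in fibers. For loops with a CTCF peak at both anchors, fiber peaks gave 5 in epithelium, epithelium peaks gave 0 in fibers, and fiber anchors widened by 5 kb gave 6. Shares of the whole lists under these settings were not computed. Limits of 2 and 5 Mb for long loops and the lower-left expectation were chosen after seeing the data. Single loops rest on as few as 15 contacts, and over all Gata genes ES cells had more loops than either lens list under every alternative of the loop counts. At Gata3 alone, loops of 5 or 10 kb anchors numbered 2 in each of the 3 lists, so that the order was lost.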
